A study of Mus musculus with 6 samples.

Results

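Genes of the NF-kappaB transcription factor family and of its feedback control were examined in mouse group 2 innate lymphoid cells (ILC2s), a tissue lymphocyte class that lacks antigen receptors and secretes type 2 cytokines. The set holds 10 genes, taken by symbol and matched to the count table by Entrez ID, out of 27179 genes listed. 5 of them encode the DNA-binding subunits (Nfkb1, Nfkb2, Rel, Rela and Relb). The other 5 encode feedback regulators, called feedback inhibitors here (Nfkbia, Nfkbiz, Nfkbie, Tnfaip3 and Birc3). All 10 passed the filter on low counts.

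ILC2s were sorted into a Chat positive and a Chat negative gate, with 3 samples from each, and RNA-seq libraries were made with a SMARTer low-input kit, per the labels. The sort gene Chat encodes the acetylcholine-making enzyme choline acetyltransferase. The labels used here give no mouse strain, age, tissue or stimulus and no way of detecting Chat, so nothing the gates share beyond the sort for ILC2s can be stated. No label states that the 3 samples per gate are from different mice, and p-values therefore describe sample-to-sample spread that could be technical. In these bulk samples, fewer cells of a type and less RNA per cell cannot be told apart.

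NF-kappaB factors are dimers that wait in the cytoplasm, bound by inhibitor proteins of the I-kappaB family. Receptors such as the IL-33 receptor, through the adaptor MyD88, and TNF receptors activate a kinase complex that marks I-kappaB for destruction, and the freed dimers enter the nucleus. Among the first genes they switch on are their own inhibitors, which close a negative feedback loop. In ILC2s this pathway links tissue alarm signals to cytokine production.

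Library totals ran from 37154269 to 50361306 counts. Levels are CPM, the usual depth-scaled count, with trimmed-mean (TMM) scaling factors. Chat stood at 187 ± 17.9 CPM in Chat positive and 20.2 ± 5.49 CPM in Chat negative cells (SD, n = 3 each), with an edgeR adjusted p of 0.0174. ILC2 markers were present in both gates, with Gata3, the factor that specifies ILC2s, at 1603 to 2425 CPM in Chat positive and 1829 to 2545 CPM in Chat negative libraries, while Ptgdr2, another ILC2 marker, reached at most 2.65 CPM. Of 12 such markers, 6 had a fitted log2 change above 0, with a median of -0.03. Blocked edgeR called Il1rl1 and Il5 higher in Chat positive cells, against 0.216% of all tested genes. Blocked DESeq2 called Il1rl1, Klrg1 and Il13 higher and Il7r lower, against 2.20% and 3.28% of genes. The gates were separate for Il13, at 377 to 464 CPM in Chat positive and 267 to 317 CPM in Chat negative libraries. The 2 libraries numbered 2 stood apart from numbers 1 and 3 in both gates. Tnfrsf9, a TNF receptor family member, differed in number 2 from the mean of numbers 1 and 3 by -1.18 on the log2 scale in Chat positive and by -1.21 in Chat negative cells. Summed markers of other cells overlapped between the gates for each of 7 lists. In blocked DESeq2, Nkg7 of the ILC1 and NK cell list, Mcpt8 of the mast cell and basophil list and Epcam of the epithelial and stromal list were called lower in Chat positive cells. Of the 6 genes of the ILC1 and NK cell list, 2 were tested. Both were lower for 3 of 3 replicate numbers, against 17.3% of all tested genes, at a median of -0.76 on the log2 scale. The gates were separate for 1 that was lower, against 3.61% of all tested genes. T cell markers summed to 85.3 to 161 CPM in Chat positive and 93.3 to 182 CPM in Chat negative libraries, with 6 of 9 genes tested and Cd8b1 at 0. B cell markers summed to 68.6 to 85.7 CPM in Chat positive and 66.2 to 74.2 CPM in Chat negative libraries with 1 of 5 genes tested, Cd79b. Myeloid markers summed to 9.61 to 32.8 CPM in Chat positive and 9.39 to 35.99 CPM in Chat negative libraries, ILC3 markers to 2.74 to 5.02 and 0.784 to 5.88, and ILC1 and NK cell markers to 9.19 to 19.1 and 15.7 to 25.6. Mast cell and basophil markers summed to 301 to 318 CPM in Chat positive and 278 to 356 CPM in Chat negative libraries, with Cpa3 and Mcpt4 at 0, and epithelial and stromal markers to 91.9 to 154 and 84.2 to 162. Their part in the results below was not tested.

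Promoter windows, from 250 bases before an annotated start to 50 after it, were held in the RefSeq-derived table of GRCm38.p6 for 7 of the 10 genes, in 10 windows, and not for Nfkb1, Relb and Nfkbiz. They were searched on both strands for the kappaB consensus, the motif that Rel family dimers bind, and for the 9-base palindrome GGAANTTCC, which can overlap it. A kappaB consensus match lay in 5.8% of all 32851 windows of the table, and the palindrome in 0.928%. Counted by gene over all its windows and both motifs, unlike those shares, 4 of the 7 genes with a window had a match. Birc3, Nfkbie and Rela had none of either motif. The 100 bases before the start in the first window are shown for the 4 genes with a match. They are both NF-kappaB parts and carriers of the family's own motif. Capitals mark the matched bases, and sequences run 5′ to 3′ on the gene's strand.
Nfkbia, chr12:55492648-55492747, minus strand: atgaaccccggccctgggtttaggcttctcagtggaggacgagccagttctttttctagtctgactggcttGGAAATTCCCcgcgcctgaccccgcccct
Tnfaip3, chr10:19015411-19015510, minus strand: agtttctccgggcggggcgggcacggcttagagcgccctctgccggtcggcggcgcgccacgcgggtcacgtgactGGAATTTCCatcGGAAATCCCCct
Nfkb2, chr19:46304637-46304736, plus strand: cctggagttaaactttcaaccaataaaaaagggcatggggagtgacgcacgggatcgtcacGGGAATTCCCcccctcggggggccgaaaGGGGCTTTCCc
Rel, chr11:23770970-23771069, minus strand: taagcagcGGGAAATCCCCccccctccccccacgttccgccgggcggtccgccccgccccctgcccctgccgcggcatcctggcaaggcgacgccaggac
With positions counted from the start, the Nfkbia consensus match ran from -29 to -20 and overlapped the palindrome at -29 to -21. Tnfaip3 had the palindrome at -24 to -16 and a consensus match at -12 to -3 in its first window, and no match in its second. Nfkb2 had consensus matches at -39 to -30 and -11 to -2 of the start in its first window. That start lies inside the RefSeq gene span, which begins at 46300994. The 2 other Nfkb2 windows, which overlap, shared 1 further match. It lay at 11 to 20 of the second window's start and at -225 to -216 of the third's. Rel had overlapping matches at -92 to -83 and -91 to -82. A match is a description of letters and not evidence of binding.

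**Figure D1:**
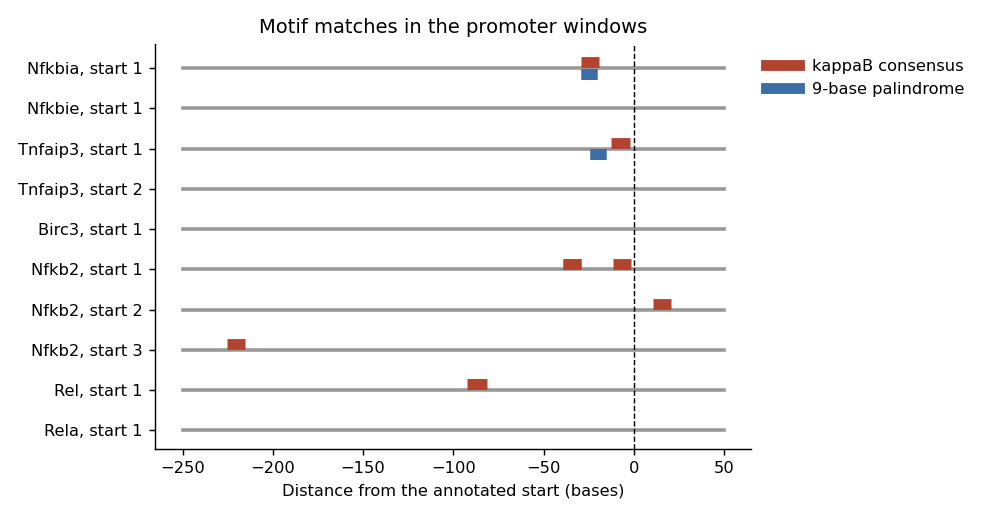
Motif matches in the 10 promoter windows of 7 NF-kappaB genes, by distance in bases from the annotated start (dashed line). Blocks mark the kappaB consensus (above the line) and the 9-base palindrome (below it). Nfkbia and start 1 of Tnfaip3 hold both motifs within 30 bases of the start. Start 2 of Tnfaip3, Birc3, Nfkbie and Rela hold neither.

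Per transcript length, Nfkbia was by far the most abundant of the 10. Its level was 282, 215 and 241 CPM per kb of its longest transcript in Chat positive 1, 2 and 3, and 196, 197 and 177 CPM per kb in Chat negative 1, 2 and 3. No other member overlapped with it in either gate. Birc3 (65.7 ± 9.62 CPM per kb in Chat positive and 58.0 ± 5.0 in Chat negative cells), Rela (52.6 ± 4.02 and 61.1 ± 5.22) and Nfkb1 (43.9 ± 13.0 and 48.3 ± 19.2) followed, and neighbours in that order overlapped between libraries (SD, n = 3 each). In Chat negative cells Rela averaged above Birc3, and Nfkb1 was separate from Nfkbiz below it. Nfkbiz, Tnfaip3 and Nfkb2 formed the next tier, at 30.3, 27.9 and 24.4 CPM per kb on average in Chat positive and 23.3, 21.2 and 21.0 in Chat negative cells, and overlapped as neighbours. Nfkbie (14.6 and 14.2 CPM per kb) and Relb (13.6 and 11.9) came below them, with Nfkb2 separate from Nfkbie in both gates. Rel, the subunit c-Rel that lymphocytes use after antigen receptor signals, was the lowest at 1.07 ± 0.0343 CPM per kb in Chat positive and 1.01 ± 0.181 in Chat negative cells, separate from Relb in both gates.

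**Figure D2:**
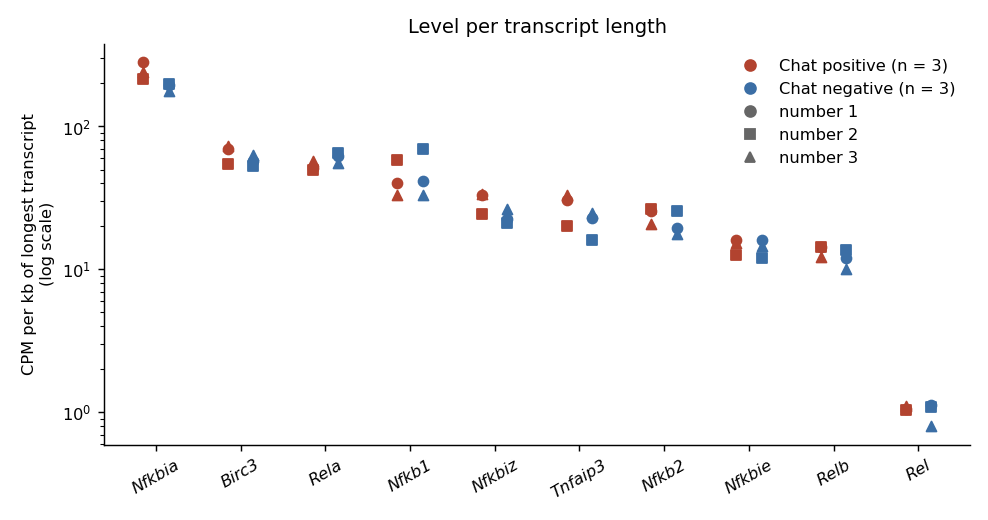
Level of each gene in each of the 6 libraries, as CPM per kb of the longest GENCODE vM21 transcript on a log axis, with Chat positive left of Chat negative. Nfkbia lies at 177 to 282 CPM per kb in all libraries and Rel at 0.797 to 1.10.

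The gates were compared to find which of these genes separate Chat positive from Chat negative ILC2s. No member passed in edgeR's quasi-likelihood test at an adjusted p under 0.05 without a replicate term, where 0.00771% of the 12967 tested genes, Chat alone, passed. DESeq2 without the block called 0.0309% of genes and also no member. 1 member had an unadjusted p under 0.05, against 2.43% of tested genes. All 5 feedback inhibitors had a fitted log2 change above 0, with a median of 0.37, against a median of 0.08 for the subunits and 0.00 over all tested genes, of which 50.9% lay above 0. The inhibitor median was 0.23 without Chat negative 2 and 0.24 without Chat positive 3, and Nfkbie turned its sign in 3 of the 6 fits that left out 1 library. In 3 of 3 replicate numbers, 4 of the 5 inhibitors and 2 of the 5 subunits stood higher in the Chat positive library, as 22.3% of tested genes did, and no member was lower for all 3, against 17.3% of tested genes.

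The replicate numbers 1 to 3 are shared by the gates. Libraries of number 2 deviated from the gate means together (correlation over genes 0.67). Numbers 1 and 3 were less clearly paired, as Chat negative 1 correlated at 0.29 with Chat positive 1 and at 0.30 with Chat positive 3. Treating equal numbers as pairs is a reading from the data and not from a label. With the number as a block, edgeR called 44 genes, or 0.339% of those tested, 28 of them higher (0.216%). Tnfaip3 was the 1 member among them (edgeR adjusted p = 0.0419), while Chat itself had an edgeR adjusted p of 0.0961 in that fit. DESeq2 with the block called 5.48% of the genes it gave an adjusted p, 2.20% as higher and 3.28% as lower, and 3 members were among the higher ones: Tnfaip3 (adjusted p = 1.13e-05), Nfkbia (0.00280) and Nfkbiz (0.00484). Blocked limma-voom and the blocked edgeR fit without robust dispersions each called 0.00771% of genes and no member, with the lowest member adjusted p at 0.0856 and 0.104, both for Tnfaip3.

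Nfkbia (Entrez 18035, chromosome 12, 55489409 to 55492647 in RefSeq's GRCm38.p6, as for all gene coordinates here) encodes I-kappaB alpha, which holds Rel dimers in the cytoplasm and is remade after each round of activation. It stood at 444, 339 and 381 CPM in Chat positive 1, 2 and 3, against 309, 311 and 279 CPM in Chat negative 1, 2 and 3. Every Chat positive library was above every Chat negative one, as for 4.53% of tested genes, and no member had the gates separate the other way, as 3.61% of genes did (8.14% in either direction). Within numbers the gap was narrowest for number 2. The fitted difference was 1.30-fold (log2 0.37, SE 0.12), and edgeR gave an adjusted p of 1.00, or 0.102 with the block. Over the alternatives its adjusted p ranged from 0.00280 to 1.00.

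Tnfaip3 (Entrez 21929, chromosome 10, 19000910 to 19015410) encodes A20, an enzyme that edits ubiquitin chains and shuts down signalling from TNF and Toll-like receptors. Its level was 189, 125 and 206 CPM in Chat positive 1, 2 and 3, and 142, 98.9 and 154 CPM in Chat negative 1, 2 and 3. Both number 2 libraries were the lowest of their gate and Chat positive 2 lay within the range of Chat negative cells, and within each number the Chat positive library was higher by 0.41, 0.33 and 0.42 on the log2 scale. That is the narrowest spread over the numbers among the 4 inhibitors with a fitted change above 0.1. The fitted log2 change was 0.40 (SE 0.24) without the block and 0.39 (SE 0.06) with it, with edgeR adjusted p of 1.00 and 0.0419. The blocked call was lost without the libraries of number 1 (adjusted p = 0.484) or of number 2 (0.132), and kept without those of number 3 (0.00222), where edgeR called 709 genes. These are fits of 2 pairs that pool their spread across genes. The unblocked log2 change was 0.24 without Chat positive 3 and 0.23 without Chat negative 2.

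Nfkbiz (Entrez 80859, chromosome 16, 55811375 to 55838954) encodes I-kappaB zeta, an inducible nuclear relative of I-kappaB that sits with p50 on DNA and is needed to transcribe a set of secondary genes, so it is not a simple inhibitor. It stood at 136, 99.7 and 138 CPM in Chat positive 1, 2 and 3, against 92.1, 86.5 and 109 CPM in Chat negative 1, 2 and 3. Of the Chat positive libraries, number 2 lay within the range of Chat negative cells. It too differed 1.30-fold (log2 0.38, SE 0.16), and edgeR gave an adjusted p of 1.00, or 0.0961 with the block.

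Birc3 (Entrez 11796, chromosome 9, 7847468 to 7873205) encodes the ubiquitin ligase cIAP2, which works with TRAF2 to carry TNF receptor signals and to keep the kinase NIK low. Its level was 203, 159 and 211 CPM in Chat positive 1, 2 and 3, and 168, 155 and 184 CPM in Chat negative 1, 2 and 3. The gates overlapped, and the difference was smallest for number 2, at 0.04 on the log2 scale, against 0.28 and 0.20 for numbers 1 and 3. The fit gave 0.18 on the log2 scale (SE 0.14; edgeR adjusted p = 1.00, and 0.221 with the block), with 0.09 without Chat positive 3 and 0.29 without Chat positive 2.

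Nfkbie (Entrez 18037, chromosome 17, 45555700 to 45563169) encodes I-kappaB epsilon, a slower inducible inhibitor of Rela and Rel dimers. It stood at 48.0, 37.9 and 46.0 CPM in Chat positive 1, 2 and 3, against 48.4, 36.2 and 43.6 CPM in Chat negative 1, 2 and 3. The libraries of each number lay within 0.08 on the log2 scale of each other, and its fitted log2 change of 0.04 (SE 0.16) was the smallest in size of the 10.

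**Figure D3:**
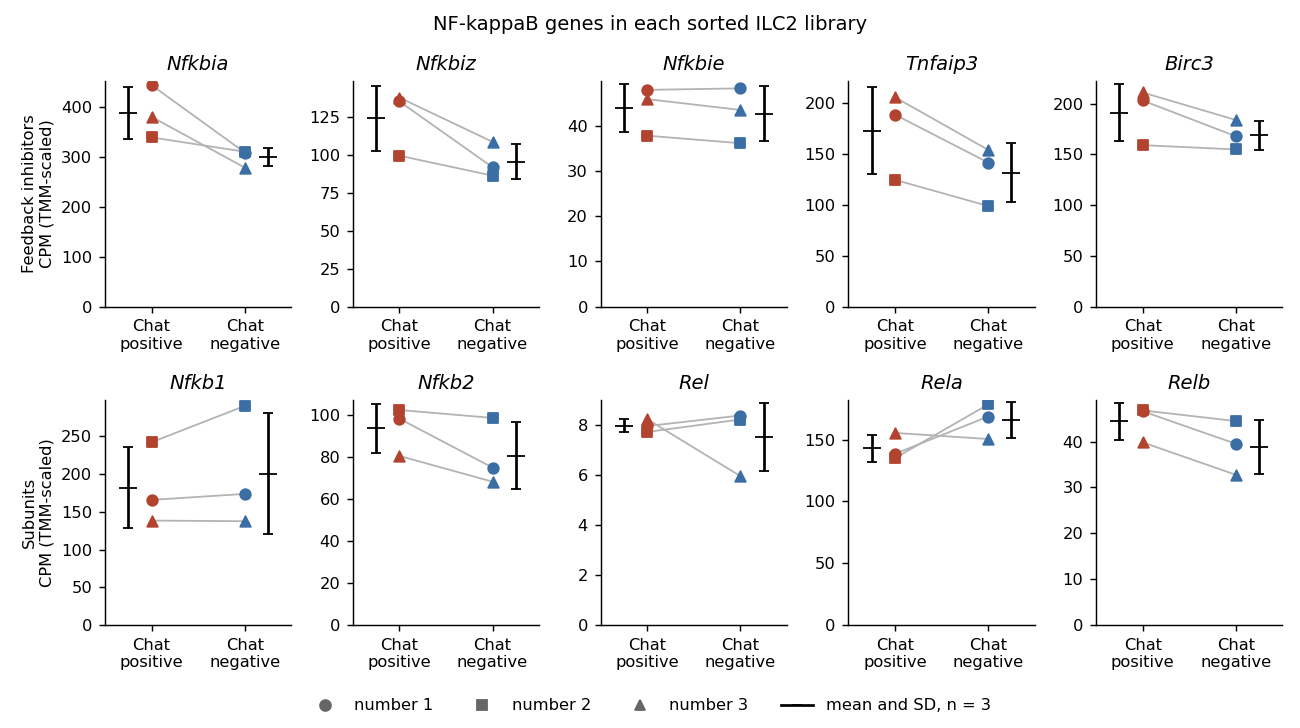
CPM of the 5 feedback inhibitors (top) and the 5 subunits (bottom) in each library, Chat positive left and Chat negative right, with lines joining libraries of the same number and bars for the mean and SD (n = 3). The gates are separate for Nfkbia alone, and the lines of Nfkbia, Nfkbiz, Tnfaip3 and Birc3 slope the same way for all 3 numbers.

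No subunit reached an adjusted p under 0.05 in any fit of all 6 libraries, and the gates overlapped for all 5. Rela (Entrez 19697, chromosome 19, 5637442 to 5648134), the p65 subunit that carries most of the activating power of the canonical dimer, had 138, 135 and 155 CPM in Chat positive 1, 2 and 3, against 169, 178 and 150.5 CPM in Chat negative 1, 2 and 3. The order was turned for number 3, where Chat positive was higher by 0.05 on the log2 scale. The fit gave -0.21 on the log2 scale (SE 0.11), the lowest of the 10; edgeR adjusted p was 1.00, and 0.270 with the block. Without both libraries of number 3, the blocked fit called it lower (log2 change -0.34, edgeR adjusted p = 0.00631), in a fit that called 709 genes. Its blocked edgeR adjusted p was 0.666 without number 1 and 0.619 without number 2.

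Nfkb1 (Entrez 18033, chromosome 3, 135584655 to 135691969) encodes p105, an I-kappaB-like precursor that is processed to p50, the usual partner of p65. It stood at 166, 242 and 138 CPM in Chat positive 1, 2 and 3, against 174, 290.3 and 138 CPM in Chat negative 1, 2 and 3. The fitted log2 change was -0.14 (SE 0.32) without the block and -0.11 (SE 0.06) with it, where edgeR gave an adjusted p of 0.455. The spread lay between the numbers rather than between the gates. The number 2 library exceeded the mean of numbers 1 and 3 by 0.68 on the log2 scale in Chat positive and by 0.91 in Chat negative cells. Tnfaip3 went the other way, at -0.66 in Chat positive and -0.58 in Chat negative cells on that scale.

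Nfkb2 (Entrez 18034, chromosome 19, 46300994 to 46312400) encodes p100, which restrains Relb until it is processed to p52, and it is itself a target of the canonical branch. Its level was 98.3, 102 and 80.5 CPM in Chat positive 1, 2 and 3, and 75.0, 98.7 and 68.3 CPM in Chat negative 1, 2 and 3. Relb (Entrez 19698, chromosome 7, 19606217 to 19629438), the partner of p52, had 46.6, 46.8 and 39.8 CPM in Chat positive 1, 2 and 3, against 39.5, 44.5 and 32.7 CPM in Chat negative 1, 2 and 3. Both genes were higher in Chat positive cells for each number although their gates overlapped, with fitted log2 changes of 0.22 (SE 0.17) and 0.19 (SE 0.15). Without Chat negative 3 these were 0.11 for Nfkb2 and 0.08 for Relb, and without Chat negative 2 they were 0.39 and 0.30. Nfkb2 over Relb came to 1.79 ± 0.0708 in Chat positive and 1.76 ± 0.137 in Chat negative cells per kb (SD, n = 3 each). On the opposite strand, exons of Psd and of a noncoding RNA cover 6.52% and 11.6% of the Nfkb2 exon bases, and without a stated strand setting their reads cannot be told apart.

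Rel (Entrez 19696, chromosome 11, 23736847 to 23770969) had 7.95, 7.71 and 8.22 CPM in Chat positive 1, 2 and 3, against 8.37, 8.21 and 5.95 CPM in Chat negative 1, 2 and 3, on 257 to 397 counts a library. Chat negative 3 alone stood apart, and the fitted log2 change of 0.08 (SE 0.20) took the opposite sign without it, at -0.06.

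**Figure D4:**
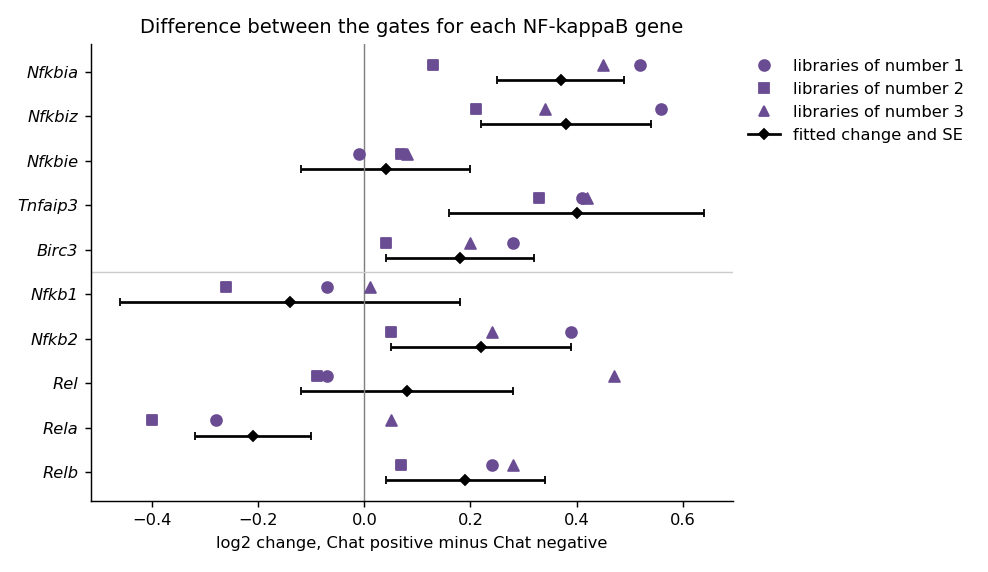
Log2 change of each gene, Chat positive minus Chat negative, for the libraries of each number (coloured symbols) and as fitted over all 6 libraries with its SE (black). Tnfaip3 lies at 0.33 to 0.42 for the 3 numbers, while Rela and Nfkb1 lie on both sides of 0.

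A ratio of 2 genes within a library does not depend on how libraries are scaled. These ratios were chosen after the values were seen and carry no test. Per kb, Nfkbia over Rela was 5.52, 4.33 and 4.22 in Chat positive 1, 2 and 3, against 3.15, 3.00 and 3.19 in Chat negative 1, 2 and 3. The lowest Chat positive ratio was above the highest Chat negative one, and the Chat negative libraries lay close together. This pair sets the only member with separate gates over the member with the lowest fitted change, so its separation partly follows from that choice. Per kb, Nfkb1 over Rela (0.583 to 1.17 in Chat positive and 0.598 to 1.07 in Chat negative libraries) overlapped between the gates. So did Nfkbiz over Nfkb1 (0.415 to 1.01 and 0.301 to 0.798). The 5 inhibitors summed per kb over the 5 subunits came to 3.27, 2.18 and 3.17 in Chat positive 1, 2 and 3, and to 2.304, 1.70 and 2.61 in Chat negative 1, 2 and 3, so that each number had the higher value in the Chat positive gate while the gates overlapped. Nfkbia supplied most of the inhibitor sum.

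**Figure D5:**
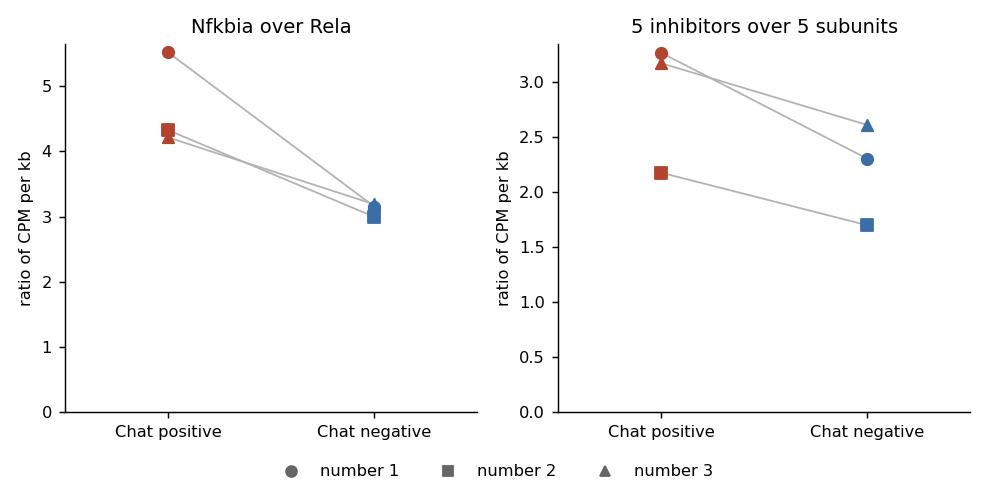
Ratio of CPM per kb in each library for Nfkbia over Rela (left) and for the 5 inhibitors over the 5 subunits (right), Chat positive left of Chat negative, lines joining libraries of the same number. Nfkbia over Rela is 4.22 to 5.52 in Chat positive and 3.00 to 3.19 in Chat negative libraries.

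Other genes of the pathway were taken from 5 lists of 112 genes, of which 99 were tested. None passed in edgeR without the block, and 8 had an unadjusted p under 0.05, against 2.43% of all tested genes. With the block, edgeR called 3 higher (Il1rl1, Tnfrsf9 and Irak3) and 0 lower, against 0.216% and 0.123% of all tested genes. Blocked DESeq2 gave only some genes an adjusted p, and how many of the 99 were among them was not counted. It called 8 of the list genes higher and 4 lower, against 2.20% and 3.28% of the genes it gave an adjusted p. Il1rl1, Tnfrsf9, Irak3, Map3k8, Csf2, Gadd45b and Cxcl2 were among the higher ones. Irak4, Traf6 and Prkcq were among the lower ones, and Il1r2 and Tnfrsf1b were also called. Blocked limma-voom and the blocked edgeR fit without robust dispersions called 0 of them. 48 of the 99 had a log2 change above 0, against 50.9% of all tested genes, with a median of -0.01. By number, 28 were higher and 24 lower in Chat positive cells for 3 of 3, against 22.3% and 17.3% of all tested genes. The gates did not overlap for 7 that were higher and 7 that were lower, against 4.53% and 3.61% of all tested genes.

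Of 20 other inhibitors and atypical I-kappaB genes, 19 were tested, 11 lay above 0 and the median log2 change was 0.02. The gates did not overlap for 4 that were higher and 1 that was lower, against 4.53% and 3.61% of all tested genes. Irak3, which encodes a kinase-dead relative of the IRAK kinases that brakes signalling from MyD88, stood at 82.9, 54.3 and 70.6 CPM in Chat positive 1, 2 and 3, against 48.9, 38.0 and 53.1 CPM in Chat negative 1, 2 and 3. The fit gave 0.57 on the log2 scale (SE 0.20; edgeR adjusted p = 1.00), and Irak3 was called higher with the block (edgeR adjusted p = 0.0427). Nfkbid, another atypical nuclear I-kappaB, stood at 26.1 ± 2.70 CPM in Chat positive and 20.2 ± 1.79 CPM in Chat negative cells, and Zc3h12a, a ribonuclease that degrades inflammatory transcripts, at 21.9 ± 3.05 and 17.2 ± 0.549 (SD, n = 3 each). Bcl3, a nuclear I-kappaB that pairs with p50 or p52, was the most abundant per kb of the list, at 402 ± 36.7 CPM in Chat positive and 431 ± 14.7 CPM in Chat negative cells.

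Receptors that lead to NF-kappaB had 8 of 21 genes above 0 and a median log2 change of -0.10. The gates were separate for 0 that were higher and 2 that were lower, against 4.53% and 3.61% of all tested genes. Il1rl1, which binds IL-33, had levels of 133, 82.0 and 159 CPM in Chat positive 1, 2 and 3, against 79.1, 58.7 and 120 CPM in Chat negative 1, 2 and 3, and was higher for each number (log2 change 0.54, SE 0.32, edgeR adjusted p = 0.0419 with the block and 1.00 without). Tnfrsf9, the most abundant per kb, was at 4664, 2166 and 5193 CPM in Chat positive 1, 2 and 3, against 3766, 1760 and 4423 CPM in Chat negative 1, 2 and 3, with a log2 change of 0.27 (SE 0.42) and an edgeR adjusted p of 1.00, and 0.0472 with the block. Tlr1, a receptor for bacterial lipopeptides, lay the other way at 23.8 ± 1.62 CPM in Chat positive and 30.9 ± 4.67 CPM in Chat negative cells, and the IL-1 receptor Il1r1 was low in both gates, at 0.245 ± 0.198 and 0.899 ± 0.365 CPM (SD, n = 3 each).

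Adaptors and ubiquitin enzymes had 9 of 24 genes above 0 and a median log2 change of -0.06. The gates were separate for 0 that were higher and 3 that were lower, against 4.53% and 3.61% of all tested genes. Irak4, the kinase that starts MyD88 signalling, stood at 37.4, 44.1 and 37.2 CPM in Chat positive 1, 2 and 3, against 50.7, 49.97 and 51.2 CPM in Chat negative 1, 2 and 3. The gates did not overlap, and the fit gave -0.35 on the log2 scale (SE 0.12; edgeR adjusted p = 1.00, and 0.114 with the block). Traf6, the ubiquitin ligase that acts next in that chain, had 89.0 ± 8.52 CPM in Chat positive and 109 ± 5.75 CPM in Chat negative cells without overlap (SD, n = 3 each). Myd88 itself averaged 165 CPM in Chat positive and 160 CPM in Chat negative cells. Traf2 stood at 109 ± 10.2 CPM in Chat positive and 93.3 ± 8.16 CPM in Chat negative cells.

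Of 9 kinases, 5 lay above 0, with a median log2 change of 0.10. The gates were separate for 2 that were higher and 1 that was lower, against 4.53% and 3.61% of all tested genes. Map3k8, which encodes the kinase TPL2 that p105 holds in check, stood at 58.4, 63.6 and 79.9 CPM in Chat positive 1, 2 and 3, against 51.6, 45.4 and 53.9 CPM in Chat negative 1, 2 and 3, without overlap (log2 change 0.42, SE 0.15, edgeR adjusted p = 1.00, and 0.102 with the block). Chuk, the I-kappaB kinase alpha subunit, averaged 104 CPM in Chat positive and 90.1 CPM in Chat negative cells, and Tbk1, an I-kappaB kinase relative, 182 and 165 CPM. Prkcq, a protein kinase C of lymphocyte receptor signalling and the most abundant per kb, was at 315 ± 79.3 CPM in Chat positive and 369 ± 108 CPM in Chat negative cells (SD, n = 3 each).

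Of 38 known target genes of NF-kappaB that are not members, 26 were tested, and Il12b, Vcam1, Sele, Bcl2a1a and Ccl22 had 0 counts in all 6 libraries. 15 of the 26 lay above 0, with a median log2 change of 0.10. The gates were separate for 1 that was higher and 0 that were lower, against 4.53% and 3.61% of all tested genes. Gadd45b, a stress-response protein, stood at 45.8, 41.2 and 37.5 CPM in Chat positive 1, 2 and 3, against 33.4, 32.8 and 31.0 CPM in Chat negative 1, 2 and 3, without overlap (log2 change 0.36, SE 0.12, edgeR adjusted p = 1.00, and 0.114 with the block). Csf2, the growth factor GM-CSF, was at 62.1, 27.0 and 81.5 CPM in Chat positive 1, 2 and 3, against 27.7, 23.2 and 42.7 CPM in Chat negative 1, 2 and 3. Ptgs2, which encodes the prostaglandin enzyme COX-2, averaged 0.325 CPM in Chat positive and 1.08 CPM in Chat negative cells. Junb, an AP-1 subunit and the most abundant target per kb, stood at 705 ± 79.5 CPM in Chat positive and 688 ± 86.0 CPM in Chat negative cells (SD, n = 3 each).

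The mean pattern of the 5 inhibitors over the 6 libraries, as log2 CPM centred on each gene's mean, was 0.28, -0.14 and 0.27 in Chat positive 1, 2 and 3, against -0.07, -0.30 and -0.03 in Chat negative 1, 2 and 3. Among 8339 other named genes with a mean of at least 10 CPM, Tmbim4, Polb and Tfpi came closest to it, with mean absolute differences of 0.032, 0.032 and 0.034 on the log2 scale. The mean pattern of the subunits was 0.02, 0.13 and -0.09 in Chat positive 1, 2 and 3, against -0.02, 0.25 and -0.30 in Chat negative 1, 2 and 3. This mean was high for number 2 in both gates, and Nfkb1 deviated most. On the log2 scale, number 2 was set against the mean of numbers 1 and 3. In Chat positive cells the difference was 0.68 for Nfkb1, 0.2 for Nfkb2, 0.12 for Relb, -0.07 for Rel and -0.12 for Rela. In Chat negative cells it was 0.91, 0.46, 0.31, 0.22 and 0.16, in that order of genes. Cmtr2, 2310057M21Rik and Scly were closest to the subunits, at 0.023, 0.027 and 0.028. These likenesses rest on 6 libraries that share their numbers and are a description.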

How the data were processed

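RNA was measured by RNA-seq in 3 Chat positive and 3 Chat negative sorted ILC2 samples. The authors' deposited values are raw counts for each Entrez gene, integers whose totals differ between libraries. CASAVA 1.8.2, STAR 2.3.0 and mm10 are listed in the submitters' processing notes; no counting program or strand setting is. Of 27179 IDs, 25275 matched RefSeq symbols of GRCm38.p6, the assembly behind mm10, and the rest held at most 0.222% of a library. Gene coordinates are those of the RefSeq table, and lengths those of the longest transcript in GENCODE vM21.

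Genes were kept by filterByExpr (12967 tested), scaled by TMM and tested with edgeR 4.0.16 glmQLFTest with robust dispersions, two-sided, Benjamini-Hochberg adjusted over all genes at 5%, without a replicate block, in R 4.3.3 with limma 3.58.1 and DESeq2 1.42.0. SE is the one that the F statistic implies. The pipeline was tested on simulated data. Within a gate, libraries differed by more than sampling noise (a chi-square of at least 29.9 for each degree of freedom). Same-numbered libraries shared deviations from the gate means (correlations over genes 0.29 for number 1, 0.67 for 2, 0.43 for 3) and were treated as pairs in the blocked fits. That pairing comes from the data and not from a label, and the correlation of Chat positive 3 with Chat negative 1 was 0.30.

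Members and gene lists were chosen with earlier results of these data known. Named from each pathway list were the 3 genes with the smallest p and the most abundant per kb. From each list of other cells' markers the rule takes the most abundant gene, and those lists are given by their sums. Alternatives were other scalings, filters, tools, a 10% threshold, the block and leaving out each library. Blocked fits without robust dispersions, under other scalings or without a number, and fits without both libraries of a number, were chosen after seeing the data. No protein sequence was used here.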

Additional observations from a re-analysis of the deposited data

How the results depend on the processing

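The feedback inhibitors kept a median log2 change above 0 in all 26 alternatives, from 0.23 (without Chat negative 2, the 1 that moved it by more than the spread between numbers) to 0.46. That of the subunits ran from -0.08 to 0.23. The number of members called without the block was 0 under every scaling, filter and tool, also at a 10% threshold and without any library. It was 1 with the replicate block in edgeR, which called 0.339% of all tested genes, and also with library-size or RLE scaling. DESeq2 with the block called 3 members, against 5.48% of the genes it gave an adjusted p. With the block and the libraries of a number left out, 0 to 4 members were called. The 4 came from the fit without number 3, which called 709 genes in all. Blocked limma-voom and blocked edgeR without robust dispersions called 0 members and 0 pathway genes. Pathway genes called were 0 without the block and 3 with the replicate block in edgeR, also with library-size or RLE scaling. They were 12 with the block in DESeq2, and 0 to 9 with the block and a number left out. The 9 came from the fit without number 3 that called 709 genes. Calls over all genes were 44 with the replicate block, 25 and 46 with it under library-size and RLE scaling, 476 with it in DESeq2, 4 in DESeq2 without it, 0 to 1 without any single library, 0 to 2 without a number and 0 to 709 with the block and without a number. The cause was not tested.

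Changes near 0 turned their sign. Leaving out single libraries, Nfkb1 ran from -0.40 (without Chat positive 2) and was at 0.01 without Chat positive 3 and 0.23 without Chat negative 2. Rel was at -0.06 without Chat negative 3 and -0.08 without number 3, blocked or not, and reached 0.17 without Chat negative 1. Nfkbie was at -0.03 without Chat positive 1, -0.01 without Chat positive 3 and -0.06 without Chat negative 2, with 0.14 as its highest. No alternative turned the sign of the other 7 members.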
